A study of Mus musculus with 8 samples.

Results

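The contractile apparatus of smooth muscle was followed through 10 genes in the colon of mice with acute graft-versus-host disease, the attack of transplanted donor T cells on recipient tissue. The genes were Acta2, Actg2, Myh11, Mylk, Myl9, Tagln, Cnn1, Des, Smtn and Lmod1, taken as a named list from the 19505 genes measured, and all 10 were on the array with 1 probe set each. No member was dropped by a filter on low values. RNA of colon tissue came from 8 mice with 1 array per mouse. The sample titles say colon and give neither the position sampled nor the share of muscle wall. All recipients were WT BALB/c mice that had been lethally irradiated and transplanted with bone marrow and T cells of C57BL/6 donors. The 4 hBD-2 mice were given human beta-defensin 2, an antimicrobial peptide of epithelia, by mouth at 1.2 mg/kg from day 0 to day 7, and the 4 PBS mice were given PBS over the same days. Tissue was taken on day 7. Every mouse had the disease, so the comparison is between treatments within it, and no healthy colon was analysed here.

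Smooth muscle shortens when calcium activates myosin light chain kinase, which phosphorylates the light chain of smooth muscle myosin and lets the motor pull on actin filaments. Calponin, transgelin and smoothelin bind these filaments, desmin ties the contractile units together, and leiomodin starts new filaments. In the colon the circular and longitudinal layers of the muscularis propria, the thin muscularis mucosae and the walls of blood vessels use this machinery, and Acta2 and Tagln are also made by myofibroblasts and pericytes. Among the members Actg2 encodes the enteric form of actin, while Myh11, Cnn1 and Des do not by themselves tell gut muscle from vessel wall. Many of these genes are controlled by serum response factor with its partner myocardin, and serum response factor binds a motif called the CArG box.

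Promoter sequence is shown for the members in which a search found this motif or a near form of it, and for Mylk, which had the largest difference between the groups. The RefSeq promoter table for GRCm38.p6 held 7 of the 10 members, and the 250 bases before each start were searched. Both strands are covered by 1 search, because the CArG box reads the same on either strand. Capitals mark a CArG box or a form 1 letter away from it, and no matches overlapped. The windows lie at chr19:34255374-34255623 on the minus strand for Acta2, chr2:156775214-156775463 on the plus strand for Myl9, chr1:135324563-135324812 on the plus strand for Lmod1 and chr16:34784700-34784949 on the plus strand for Mylk.
Acta2: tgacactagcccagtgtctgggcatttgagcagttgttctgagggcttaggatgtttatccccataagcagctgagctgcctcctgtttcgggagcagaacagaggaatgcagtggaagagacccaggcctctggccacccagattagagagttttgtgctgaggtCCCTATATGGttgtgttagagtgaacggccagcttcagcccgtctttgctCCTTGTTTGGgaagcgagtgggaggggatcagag
Myl9: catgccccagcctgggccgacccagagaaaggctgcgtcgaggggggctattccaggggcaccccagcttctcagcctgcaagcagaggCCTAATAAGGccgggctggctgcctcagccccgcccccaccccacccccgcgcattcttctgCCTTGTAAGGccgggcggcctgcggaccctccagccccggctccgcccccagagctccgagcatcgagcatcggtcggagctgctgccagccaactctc
Lmod1: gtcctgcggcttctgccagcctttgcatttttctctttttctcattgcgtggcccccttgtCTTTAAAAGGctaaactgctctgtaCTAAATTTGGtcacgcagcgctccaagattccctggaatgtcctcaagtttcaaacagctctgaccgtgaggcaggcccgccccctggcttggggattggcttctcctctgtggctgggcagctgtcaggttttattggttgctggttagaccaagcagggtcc
Mylk: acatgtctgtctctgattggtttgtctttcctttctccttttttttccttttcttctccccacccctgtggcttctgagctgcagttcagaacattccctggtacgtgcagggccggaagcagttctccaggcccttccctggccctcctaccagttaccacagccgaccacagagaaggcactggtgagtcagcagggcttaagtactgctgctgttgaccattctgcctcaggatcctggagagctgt
The Myl9 window held the exact motif CCTAATAAGG, beginning 161 bases before the start. Acta2 held 2 near forms, CCCTATATGG at 84 bases and CCTTGTTTGG at 34 bases before the start. An exact CArG box was present in 1 of the 7 member windows and in 1.47% of the 32851 windows of this length in the table, and an exact or near form in 3 of 7 and in 18.6%. The windows of Mylk, Cnn1, Des and Smtn held neither, which says only that these letters are absent from these windows. Beside this, the members with a match, Acta2, Myl9 and Lmod1, differed between the groups by -0.17, -0.28 and -0.25 log2 units. Those searched without a match, Mylk, Cnn1, Des and Smtn, differed by -0.41, -0.16, 0.011 and -0.17. A link between the motif and these differences was not tested.

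No contractile gene passed the test between treatments. Values are log2 units of RMA, a normalization that makes the distributions of all arrays alike, and differences are hBD-2 minus PBS from limma's moderated test, with Benjamini-Hochberg adjustment over all genes and a threshold of 0.05. By this test 0 of 10 members passed, beside 8 of 19505 genes or 0.0410%, and the smallest adjusted p of a member in limma was 0.299, for Mylk. Before adjustment, Mylk and Myl9 had a p under 0.05, so 2 members were lower and none higher, where 5.98% of all genes were lower and 5.85% higher. The difference was below 0 in 9 of the 10 members, beside 46.5% of all genes. The median difference over the members was -0.19, beside 0.012 over all genes tested. Whole tissue was measured, so fewer muscle cells and less RNA per cell cannot be told apart.

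The colon of 1 mouse carried much of this difference. hBD-2 3 had the lowest value of the 8 arrays in all 10 members, beside 13.7% of all genes. The mean of the members, taken relative to each gene's mean over the arrays, was 0.081, 0.036, -0.46 and -0.032 in hBD-2 1 to 4, against 0.12, 0.21, 0.092 and -0.046 in PBS 1 to 4. Apart from hBD-2 3, the hBD-2 mice lay within the range of the PBS mice. Without hBD-2 3 the mean difference over the members was -0.067, against -0.19 with all 8 arrays, and 8 of the 10 members were still below 0. Among PBS mice, PBS 4 was the lowest in all 10 members and PBS 2 the highest in 8.

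**Figure D1:**
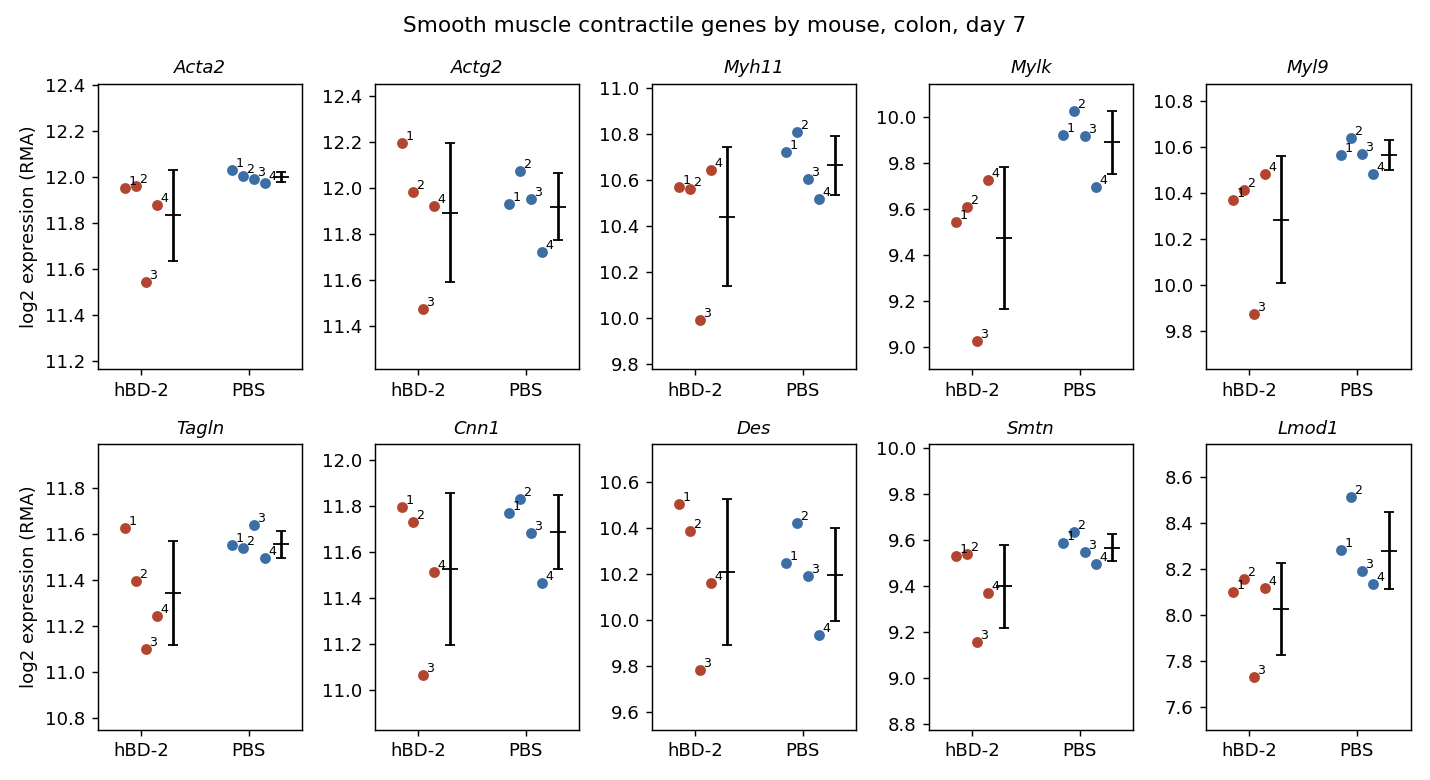
Expression of the 10 contractile genes in each mouse, in log2 units of RMA. Each panel spans the same height on its own axis range, dots are single mice labelled with their replicate number, and the black bar gives the mean and SD of the 4 mice. hBD-2 3 is the lowest dot in every panel.

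hBD-2 3 and hBD-2 1 are also the arrays that stand apart over all genes. The first principal component held 34.6% of the variance and placed them at 25.4 and 25.2, with the other 6 arrays between -14.9 and -2.45. Hoxb13 and Hoxd13, homeobox genes of the most posterior body axis, stood at 9.32 and 6.03 in hBD-2 3 and at 9.06 and 6.20 in hBD-2 1. In the other hBD-2 mice Hoxb13 was at 5.11 and 5.22, against 4.73 to 7.22 in the PBS mice. The contractile genes separated this pair, since the mean of the members was -0.46 in hBD-2 3 and 0.081 in hBD-2 1. The list of 7 measured posterior position genes averaged 0.58 in hBD-2 1, 0.56 in hBD-2 3, and -0.30 to -0.0083 in the other 6 mice, and its part in the results was not tested. Without both arrays, a setting chosen after the data were seen, the mean difference over the members was -0.093.

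Acta2 encodes the alpha actin of vascular smooth muscle and myofibroblasts, and it reached 11.95, 11.96, 11.54 and 11.88 in hBD-2 1 to 4, against 12.03, 12.01, 11.99 and 11.97 in PBS 1 to 4. The hBD-2 values were each below the lowest PBS value, but the gap between hBD-2 2 and PBS 4 was far smaller than the spread of the hBD-2 mice. It was the single member of 10 whose groups did not overlap, beside 3.60% of all genes lower and 2.80% higher in this way. The group means were 11.83 ± 0.20 in hBD-2 and 12.00 ± 0.023 in PBS mice (SD, n = 4 each), a difference of -0.17 (SE 0.098) that did not pass (adjusted p = 0.532 in limma). Without hBD-2 3 it was -0.070.

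Actg2, the gamma actin of enteric smooth muscle, showed almost no difference in means. It was at 12.20, 11.98, 11.47 and 11.92 in hBD-2 mice, against 11.93, 12.07, 11.96 and 11.72 in PBS mice. The hBD-2 values reached both above and below those of PBS, with hBD-2 1 the highest and hBD-2 3 the lowest of the 8. The difference was -0.027 (95% interval -0.34 to 0.29), 0.11 without hBD-2 3 and 0.025 without PBS 2. The coding sequences of Acta2 and Actg2 are close to each other, and whether a probe of one picked up the other was not tested.

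Of the myosin motor, Myh11 encodes the heavy chain and Myl9 the regulatory light chain that is phosphorylated in contraction. Myh11 was at 10.57, 10.56, 9.99 and 10.64 in hBD-2 mice, against 10.72, 10.81, 10.61 and 10.52 in PBS mice. Apart from hBD-2 3 the hBD-2 values lay inside the PBS range, and the difference of -0.22 (SE 0.14) was -0.073 without that array. Myl9 was at 10.37, 10.41, 9.87 and 10.48 in hBD-2 mice, against 10.57, 10.64, 10.57 and 10.48 in PBS mice. Here 3 of the 4 hBD-2 mice lay below every PBS mouse, and hBD-2 4 was level with PBS 4. The difference was -0.28 (SE 0.13, unadjusted p = 0.0495, adjusted p = 0.422 in limma) and -0.14 without hBD-2 3.

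Mylk, the kinase that phosphorylates that light chain, differed most. It was at 9.54, 9.61, 9.03 and 9.72 in hBD-2 mice, against 9.92, 10.03, 9.92 and 9.70 in PBS mice. hBD-2 1, 2 and 3 were below all PBS mice, and hBD-2 4 lay just above PBS 4. The means of 9.47 ± 0.31 in hBD-2 and 9.89 ± 0.14 in PBS mice (SD, n = 4 each) differed by -0.41 (SE 0.14), a level 1.33-fold lower (unadjusted p = 0.0160, adjusted p = 0.299 in limma). Leaving out single arrays gave -0.50 to -0.26, the smallest without hBD-2 3, and limma's adjusted p then ran from 0.224 to 0.575. The difference was -0.22 with both arrays that stand apart, hBD-2 1 and hBD-2 3, left out.

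Among proteins that bind the filaments, Tagln (transgelin) was at 11.63, 11.40, 11.10 and 11.25 in hBD-2 mice, against 11.55, 11.54, 11.64 and 11.50 in PBS mice. hBD-2 2, 3 and 4 were below every PBS mouse, whereas hBD-2 1 was among the highest. Tagln differed by -0.21 (SE 0.11), and by -0.13 with hBD-2 3 left out. Cnn1, the smooth muscle calponin that damps the myosin motor, was at 11.79, 11.73, 11.07 and 11.51 in hBD-2 mice, against 11.77, 11.83, 11.68 and 11.46 in PBS mice. Its groups overlapped through all mice but hBD-2 3. Its difference of -0.16 (SE 0.15) was -0.0065 without that array. Smtn, smoothelin, was at 9.53, 9.54, 9.16 and 9.37 in hBD-2 mice, against 9.58, 9.63, 9.55 and 9.50 in PBS mice. hBD-2 3 and 4 lay below the PBS mice and the other hBD-2 mice within their range, for a difference of -0.17 (SE 0.095), or -0.087 without hBD-2 3.

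Des and Lmod1 lay at the opposite ends of what remained. Des, the intermediate filament of muscle, was at 10.50, 10.38, 9.78 and 10.16 in hBD-2 mice, against 10.25, 10.42, 10.19 and 9.93 in PBS mice. hBD-2 1 lay above every PBS mouse and hBD-2 3 below every one, with the other hBD-2 mice inside the PBS range. The difference was 0.011 (95% interval -0.34 to 0.36), 0.15 without hBD-2 3, and -0.087, -0.048 and -0.077 when hBD-2 1, hBD-2 2 or PBS 4 was left out instead. It was the only member not below 0 with all 8 arrays. Lmod1, leiomodin, a nucleator of actin filaments, was at 8.10, 8.16, 7.73 and 8.11 in hBD-2 mice, against 8.28, 8.51, 8.19 and 8.13 in PBS mice. All hBD-2 mice but hBD-2 2 lay below every PBS mouse. The difference of -0.25 (SE 0.12, adjusted p = 0.429 in limma) was -0.16 without hBD-2 3.

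**Figure D2:**
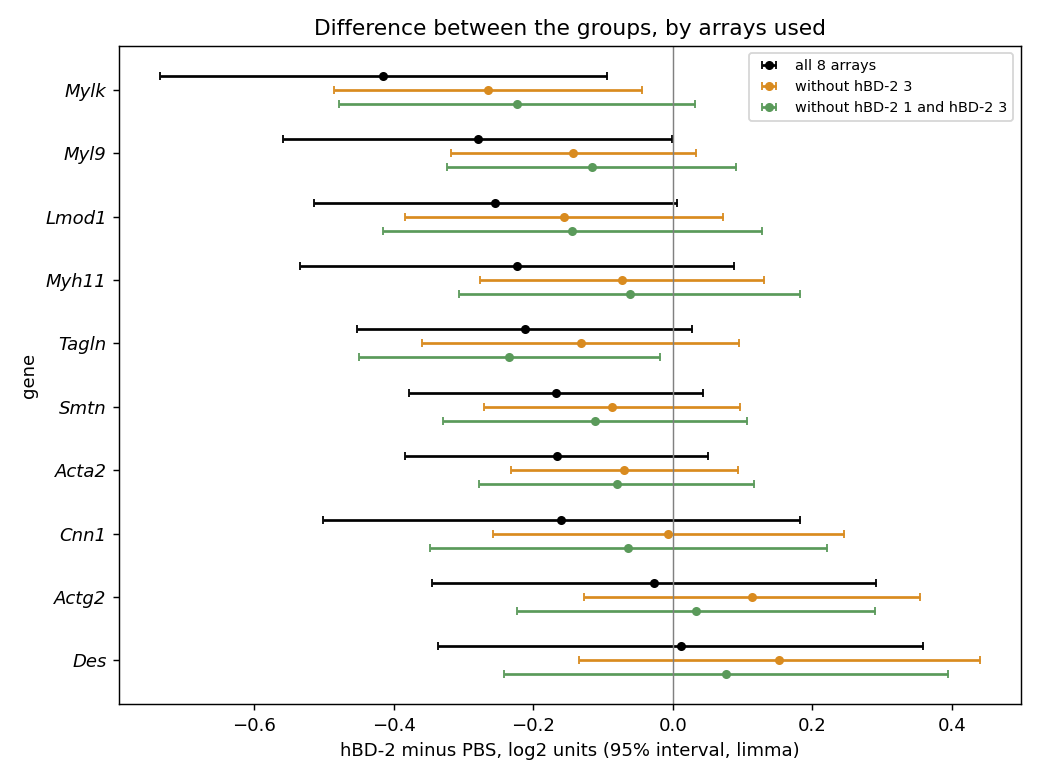
Difference between the groups for each contractile gene, hBD-2 minus PBS in log2 units, with the 95% interval from limma, from all 8 arrays and with arrays left out. With all arrays Mylk lies at -0.41 and Des at 0.011, and without hBD-2 3 they lie at -0.26 and 0.15.

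The members varied together over the arrays, though largely through hBD-2 3. Pearson's r between pairs of members, as a description over 45 pairs, ran from 0.55 to 0.98 with a median of 0.85 over the 8 arrays, and from -0.18 to 0.99 with a median of 0.47 over the 7 without hBD-2 3. The spread between mice within groups was above that of most genes for 8 of the 10, with a median percentile of 82.1 among all genes, the lowest being Smtn (43.8) and Acta2 (48.3) and the highest Des (92.0).

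Set against the other 9 members in the same mouse, some members shifted more than others. Actg2 minus the mean of the other 9, each relative to its own mean, was 0.23, 0.044, 0.033 and 0.054 in hBD-2 mice, against -0.11, -0.049, -0.049 and -0.15 in PBS mice. These groups did not overlap, which held for no other member. Des was relatively higher by 0.22, with 0.24, 0.16, 0.050 and -0.010 in hBD-2 mice against -0.088, 0.0066, -0.12 and -0.25 in PBS mice, and these overlapped. Mylk lay the other way, at -0.25, -0.12, -0.22 and 0.083 in hBD-2 mice, against 0.13, 0.15, 0.16 and 0.066 in PBS mice, with hBD-2 4 alone inside the PBS range. For the remaining 7 members the difference of these relative values was between -0.10 and 0.033. Each contrast draws on all the members, so the contrasts are not separate from each other, and no share over all genes was computed for them. These contrasts were picked out after the values were seen and were not tested.

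**Figure D3:**
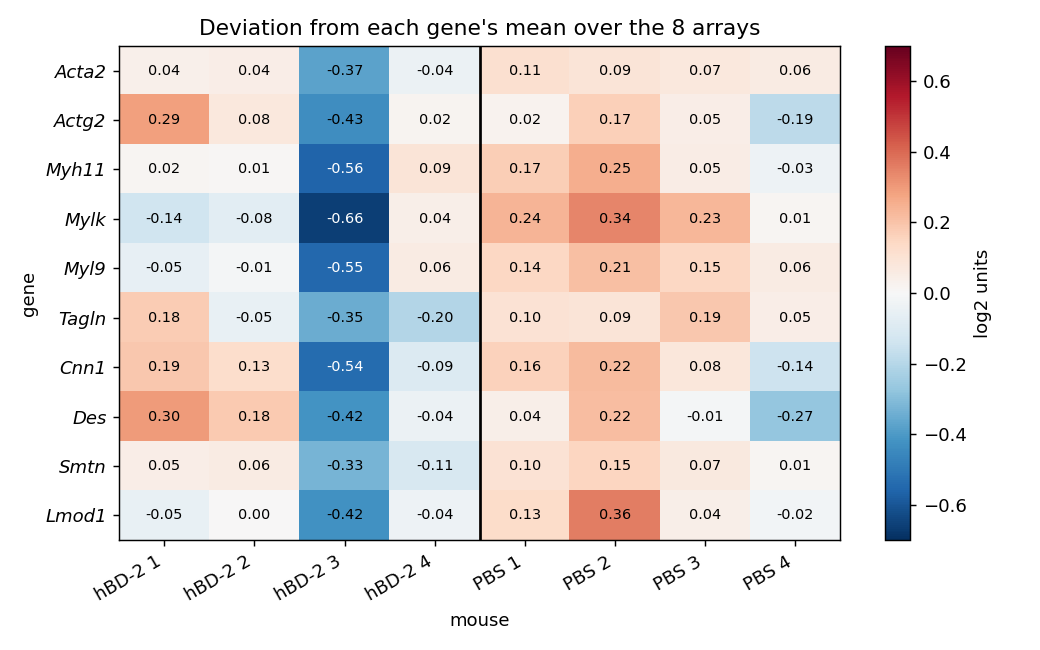
Deviation of each contractile gene (rows) from its mean over the 8 arrays, in log2 units, by mouse (columns, hBD-2 left of the line and PBS right). hBD-2 3 is negative throughout, from -0.33 in Smtn to -0.66 in Mylk, while hBD-2 1 holds 0.29 in Actg2 and 0.30 in Des.

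Further genes of the contractile machinery showed the same order of size. Of 35 listed genes of the contractile cytoskeleton and the dense plaques that anchor it, 33 were measured and none passed. Of these, 29 were below 0, beside 46.5% of all genes, and the median was -0.16. At an unadjusted p under 0.05, 7 were lower and none higher, beside 5.98% and 5.85% of all genes. The lowest p belonged to Nexn, an actin-binding protein, at -0.45 (SE 0.077, adjusted p = 0.0782 in limma). It passed when the dimmest 50% of probe sets were dropped (adjusted p = 0.0399 in limma) and with array weights (0.0378), and over all alternatives its adjusted p ran from 0.0378 to 0.282. Nexn was at 6.85, 7.08, 6.93 and 6.94 in hBD-2 mice, against 7.38, 7.47, 7.44 and 7.29 in PBS mice. Those groups lay well apart, and hBD-2 3 did not stand out, with -0.44 when it was left out. The small heat shock protein gene Hspb8 and the nonmuscle myosin heavy chain Myh10 were at -0.60 and -0.54, and at -0.62 and -0.49 without hBD-2 3. The list's median was -0.084 without hBD-2 3, and hBD-2 3 was the lowest array in 16 of the 33, beside 13.7% of all genes.

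Genes that control excitation and contraction were measured for 20 of 26 listed. None passed, and 19 were below 0, beside 46.5% of all genes. Their median was -0.16, or -0.085 without hBD-2 3 and -0.025 without both hBD-2 1 and hBD-2 3. At an unadjusted p under 0.05, 4 were lower and none higher, beside 5.98% and 5.85% of all genes. Tacr2, a tachykinin receptor that drives contraction, was at 7.50, 7.56, 7.03 and 7.81 in hBD-2 mice, against 8.40, 8.19, 8.10 and 7.90 in PBS mice. All hBD-2 mice were lower, with a difference of -0.67 (SE 0.16, adjusted p = 0.160 in limma). Gucy1b1, a subunit of the nitric oxide receptor guanylate cyclase, was at -0.49 and Ppp1r12b, a regulatory subunit of myosin phosphatase, at -0.32. Omitting hBD-2 1 and hBD-2 3 brought Gucy1b1 to -0.16.

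Of the 12 transcription factors of smooth muscle and gut mesenchyme none passed. At an unadjusted p under 0.05, 2 were lower and 1 higher, beside 5.98% and 5.85% of all genes. Their median was -0.039, or -0.0011 without hBD-2 3. Myocd, which encodes myocardin, was at 5.95, 5.95, 5.30 and 5.84 in hBD-2 mice, against 6.19, 5.85, 6.11 and 5.60 in PBS mice. The groups overlapped, hBD-2 3 was again the lowest, and the difference of -0.18 (SE 0.17) was -0.024 without it. Srf, serum response factor, was at -0.032 (95% interval -0.27 to 0.21), and at 0.00081 without hBD-2 3. The lowest p-values were those of Foxf1 and Foxf2, forkhead factors of gut mesenchyme, at -0.48 and -0.57, and of Nkx3-2, a homeobox factor of gut mesenchyme, at 0.35 (adjusted p = 0.175, 0.257 and 0.370 in limma). With that pair of arrays left out, Foxf1 was at -0.32, Foxf2 at -0.22 and Nkx3-2 at 0.60.

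Genes of interstitial cells, only some of which pace the muscle, and of pericytes were also compared. Over all genes, 46.5% were below 0 and 5.98% were lower at an unadjusted p under 0.05. Of 6 measured interstitial genes 5 were below 0, none passed and 1 was lower at an unadjusted p under 0.05, with the purine receptor P2ry1 at -0.51, the transcription factor Etv1 at -0.30 and Kit at -0.18. These were at -0.065, -0.17 and -0.089 with the pair left out. Of 10 pericyte and vascular smooth muscle genes 8 were below 0, none passed and 1 was lower at an unadjusted p under 0.05, with the channel subunit Abcc9 at -0.46, the adhesion molecule Mcam at -0.27 and Rgs5, a defining gene of pericytes, at -0.50 (SE 0.29). The pericyte list averaged -0.32 to 0.19 in hBD-2 mice, against -0.0086 to 0.19 in PBS mice. Both hBD-2 1 (-0.27) and hBD-2 3 (-0.32) were low in it, unlike in the contractile genes. They were also low in the excitation and contraction control list (-0.20 and -0.37) and the fibroblast and matrix list (-0.25 and -0.37). Without the pair Rgs5 was at 0.089, Mcam at -0.042 and Abcc9 at -0.24.

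Markers of other tissue layers were compared in the same mice. Beside the counts that follow, 46.5% of all genes were below 0 and 5.98% were lower at an unadjusted p under 0.05. Of 15 fibroblast and matrix genes 14 were below 0, 11 of them at an unadjusted p under 0.05, and none passed, and the list averaged -0.37 to 0.042 in hBD-2 mice, against 0.14 to 0.28 in PBS mice, with a median difference of -0.45. Vim, Col3a1, Postn and Col1a1 were at -0.54, -0.52, -0.53 and -0.45, and Col1a1 was at -0.23 with the pair left out. Vim, Col3a1 and Postn passed under some alternative settings of limma. Of 8 leukocyte genes all were below 0, 5 of them at an unadjusted p under 0.05, and the macrophage gene Aif1 fell by 0.96 (SE 0.13, adjusted p = 0.0467 in limma), a call that ended with any single array left out, with quantile normalization repeated, with all probe sets tested and with the replicate block, while Cd4, Itgam and Ptprc were at -0.61, -0.62 and -0.27, or -0.72, -0.29 and -0.49 with the pair left out. The leukocyte list averaged -0.33 to -0.16 in hBD-2 mice, against 0.14 to 0.35 in PBS mice. Enteric neuron and glia genes were below 0 in 9 of 13, 3 of them at an unadjusted p under 0.05 and none past, averaging -0.20 to 0.060 in hBD-2 mice against -0.15 to 0.20 in PBS mice, and with Elavl4, Prph and Stmn2 at -0.46, -0.35 and -0.27. Stmn2 was at -0.18 without PBS 1 and at -0.12 with the pair left out. No value in the table is 0 and RMA values do not show absence, and the part of these cell types in the contractile genes' differences was not tested.

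The mean of the epithelial genes was nearly level across the mice, hBD-2 3 included. Over 14 genes the mean was -0.022 to 0.066 in hBD-2 mice, with 0.010 in hBD-2 3, against -0.064 to 0.064 in PBS mice. None passed, with none lower and 1 higher at an unadjusted p under 0.05. Epcam was at 0.036, the anion exchanger Slc26a3 at 0.33, Krt18 at -0.16 and the brush border protein Vil1 at 0.11. In Slc26a3 and Vil1, 2 of the 14, every hBD-2 mouse lay above every PBS mouse, beside 2.80% of all genes. The nearest values were 11.793 against 11.787 in Slc26a3 and 10.719 against 10.718 in Vil1. Krt18 was at -0.098 without hBD-2 1, Epcam at 0.010 without hBD-2 2, and with the pair left out Krt18, Epcam and Slc26a3 were at -0.034, 0.072 and 0.18. Mesothelium and fat genes, 10 measured and none past, averaged -0.010 to 0.096 in hBD-2 mice against -0.34 to 0.099 in PBS mice, with Plin1, Lep and Msln each at 0.22, or 0.35, 0.40 and 0.041 with the pair left out, and none had an unadjusted p under 0.05. Striated muscle genes, with mean levels of 3.70 to 8.04, were above 0 in 17 of 18, where 46.5% of all genes were below 0. Of the 18, 2 were higher at an unadjusted p under 0.05, beside 5.85% of all genes, and none passed. The striated list averaged 0.015 to 0.12 in hBD-2 mice, against -0.13 to -0.0056 in PBS mice. Actc1, Myh2, Myog and Acta1 were at 0.44, 0.26, 0.30 and 0.091. Myog was at 0.18 without PBS 2, Acta1 at -0.0068 without hBD-2 1 and at 0.16 without hBD-2 3, and with the pair left out, Myog and Acta1 were at 0.47 and 0.042. In hBD-2 3 that list averaged 0.015, the lowest of the hBD-2 mice. In the position list, Hoxd12, Hoxd13, Hoxd10 and Hoxb13 were at 0.36, 0.83, 0.66 and 1.22, none past and 1 of the 7 at an unadjusted p under 0.05, and with the pair left out they were at 0.39, -0.085, 1.20 and -0.79. Hoxd10 was at 0.41 without hBD-2 2.

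**Figure D4:**
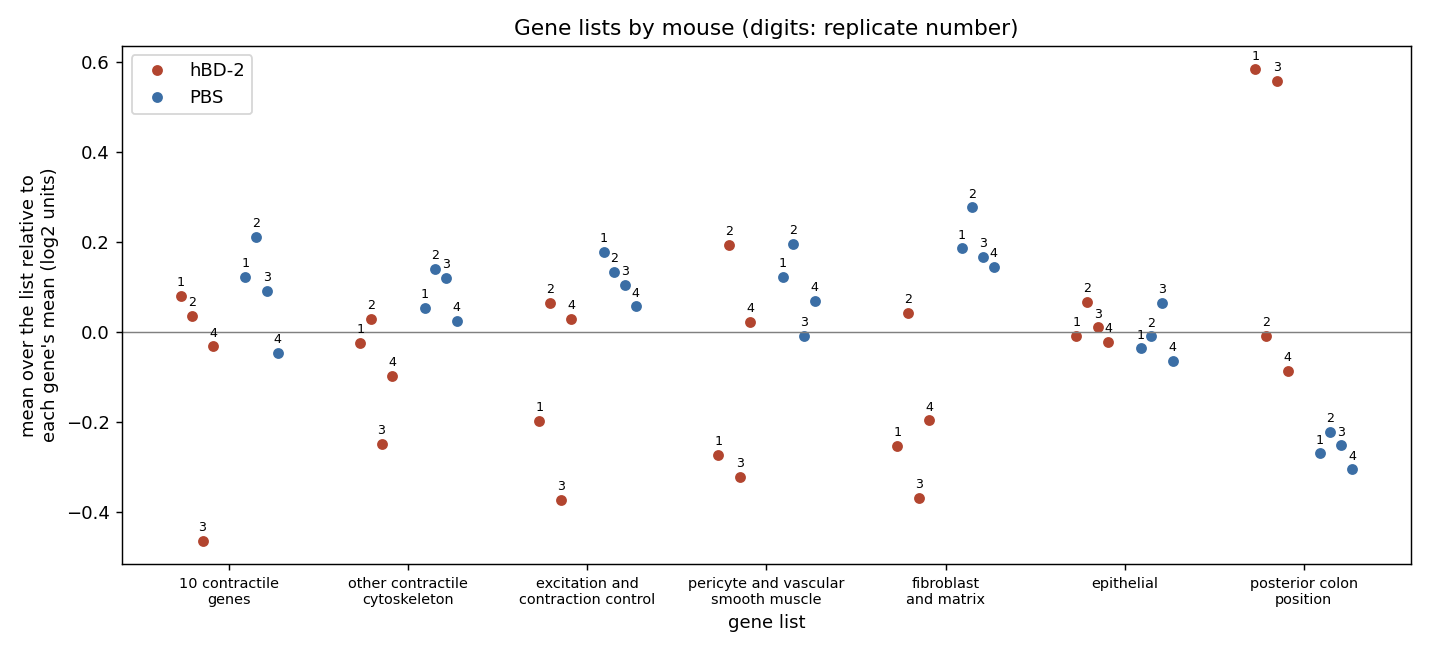
Mean of 7 gene lists in each mouse, in log2 units relative to each gene's mean over the 8 arrays, with digits for the replicate number. hBD-2 3 lies at -0.46 in the 10 contractile genes and hBD-2 1 at 0.081, while both lie near 0.56 to 0.58 in the posterior colon position list.

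The genes whose values followed the members most closely were found by Pearson's r with the mean of the members over the 8 arrays, among 4927 genes with a proper name and an SD of at least 0.2. The closest was Cnnm2, which encodes a membrane protein of magnesium handling, at r = 0.98 (Spearman's rho 0.98). Cnnm2 was at 6.26, 6.14, 5.71 and 6.12 in hBD-2 mice, against 6.36, 6.39, 6.25 and 6.10 in PBS mice. As in most members, hBD-2 3 was lowest and PBS 2 highest. Next were Tpm2, the beta tropomyosin, at 0.98, Tns1, a tensin of focal adhesions, at 0.97, and Pdlim3, a protein of actin anchoring sites, at 0.94. Scn7a, Lncpint, Fgfr1, Akap6, Mcam and Popdc2 followed at 0.93 to 0.94. Without the 2 arrays farthest from the median, hBD-2 3 and PBS 2, r over the remaining 6 was 0.94 for Cnnm2. For Tpm2, Akap6 and Fgfr1 it was 0.87, 0.82 and 0.75. It was 0.61 for Pdlim3, 0.60 for Scn7a, 0.57 for Tns1 and 0.56 for Lncpint, but 0.35 for Mcam and 0.36 for Popdc2. Mcam and Popdc2 thus rest on those arrays, and Pdlim3, Scn7a, Tns1 and Lncpint do in part. The values that ran most against the members were those of Cracd, Cebpzos, Apba2, Olfr1288 and Cbfa2t3, at r of -0.93 to -0.90. These r were selected as the extremes of many genes over arrays that share 1 normalization, and no p is given.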

How the data were processed

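Expression was measured on Affymetrix arrays, 1 per mouse, from colon RNA labelled with the maker's kit for small inputs, per the labels' protocols. The deposited table holds log2 values for 22203 probe sets, made by the authors with oligo and RMA, per the submitters' processing notes, which give no versions. RMA subtracts background, equalises the arrays' distributions and summarises probes, so an overall shift between mice would not show. Array medians ran from 6.77 to 6.82, and precision is limited by the number of arrays. By the platform annotation 19572 probe sets had 1 gene symbol, 0 had several, and 2631 were unnamed here. The probe set with the highest mean was kept per gene, which left 19505 genes. No source used here gives the build behind the array, and the promoters are RefSeq's.

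Groups and replicate numbers came from the sample titles. All genes were fitted with limma 3.58.1 (lmFit, eBayes; R 4.3.3), two-sided, with 95% intervals from the moderated errors. The fit was tested on simulated data. Of 183 entries in 12 further lists, 166 were measured, and Irag1 was matched through the older symbol Mrvi1. The members and lists were chosen with earlier results of these data known. Text names the members, the 3 genes with the lowest p in each list and any that passed, defining markers, and the 10 most and 5 least like genes. Same-numbered mice deviated from their group means with correlations of -0.15, 0.14, 0.24 and 0.045 across genes. Such values cannot show whether the numbers pair the mice, so the main fit used no pairs and a replicate block was an alternative. Nothing beyond the titles says how the mice were housed or arrays batched. Alternatives covered the prior, filters on dim probe sets, scaling, probe set choice, array weights, the replicate block, the threshold and left-out arrays. Figures were drawn with matplotlib 3.10.9.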

Additional observations from a re-analysis of the deposited data

Results flagged for a closer look

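In a group of 4 mice, a mouse was picked out where its gap to the nearest other mouse, divided by the group's whole range, was above Dixon's 95% value of 0.829. Of 136 combinations of a measure, mostly a gene, and a group, 10 were picked out, and 6 of the 10 concern hBD-2 3. For independent measures not picked by their values, chance gives about 1 in 20. Many of these genes were picked by p or by likeness and vary together, so that rate is only a rough guide. Among the contractile genes, which vary together, 2 of 20 combinations were picked out, beside the same 1 in 20. In both, hBD-2 3 stood apart from the other hBD-2 mice, for Myh11 (0.871 of the range) and Lmod1 (0.869). The same mouse stood apart in Myocd (0.831), Pdlim3 (0.844), Scn7a (0.865) and Akap6 (0.907). hBD-2 1 stood apart in 2 striated muscle genes in opposite directions, as the lowest hBD-2 mouse in Myh2 (0.844) and the highest in Actc1 (0.847). Among PBS mice, PBS 2 stood apart in Tns1 (0.875) and PBS 4 in Fgfr1 (0.976). Pdlim3, Scn7a, Akap6, Tns1 and Fgfr1 were named for their likeness to the members, so these are not separate from the pattern of the members.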

How the results depend on the processing

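In every alternative run, 0 of the 10 contractile genes passed limma's test, with 1 to 3 members at an unadjusted p under 0.05, all lower, and no member higher. The mean difference over the members stayed below 0, from -0.25 without hBD-2 1 to -0.067 without hBD-2 3 among single arrays left out, and was -0.17 with each array centred on its median. The number of genes past the threshold was 8 and moved with the setting. It was 91 with an intensity trend and robust prior, 16 and 46 with the lowest 25% and 50% of probe sets left out, 4 with quantile normalization repeated, 5 with all probe sets tested, 68 with array weights and 81 at a threshold of 0.1. It ran from 0 to 11 when arrays were omitted singly and was 0 when hBD-2 1 and hBD-2 3 were both omitted, where 2503 genes had an unadjusted p under 0.05. With the replicate number as a block it was 0 (2566 at an unadjusted p under 0.05), the blocked mean difference of the members was -0.19, and none of the members passed either way. The cause of these shifts was not tested, beyond the fewer genes or arrays entering some fits. Some differences changed sign. Des was at -0.016 with array weights, and between -0.087 and 0.15 with single arrays left out. Actg2 was between -0.13 and 0.11 with single arrays left out. Without hBD-2 1 and hBD-2 3, Actg2 was at 0.033, Rgs5 at 0.089, Hoxd13 at -0.085, Hoxb13 at -0.79, Srf at 0.099 and Fgfr1 at 0.046. With single arrays left out Srf ran from -0.12 to 0.023 and Acta1 from -0.0068 to 0.16, and Fgfr1 from -0.19 to 0.046. Nexn passed with the dimmest 50% of probe sets dropped and with array weights, Vim and Col3a1 in both and with an intensity trend and robust prior, Postn with that prior, and Cd4 with that prior and with the dimmest 50% dropped, at adjusted p from 0.0056 to 0.0446 in limma. Col3a1 also passed without hBD-2 2, and all 5 passed at the threshold of 0.1. Signal over background cannot be read from RMA values.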
